A study of Mus musculus with 9 samples.

Results

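The 35 genes described here are a fixed list of gene symbols that covers glucose uptake, glycolysis, lactate production and transport, the gate of pyruvate into the mitochondrion, and the pentose phosphate pathway. Each symbol was matched to 1 Ensembl gene in the deposited count table, so all 35 were found among its 52550 genes, and all 35 were among the 18699 genes with enough counts to be tested. No rule on measured values picked the members, but the list was chosen with earlier results of these data known. RNA was sequenced from the spinal cord of 9 adult female C57BL/6N mice on day 7 after surgery, in 3 groups of 3 mice. Sham mice had the vertebral plates removed and nothing more. SCI mice had a contusion of the thoracic cord and were injected with the solvent dimethyl sulfoxide. SCI+FIPI mice had the same contusion and were injected with FIPI, a small molecule that inhibits phospholipase D, the enzyme that releases phosphatidic acid from phosphatidylcholine. Injection was intraperitoneal in both injured groups and was kept up until the mice were killed, with FIPI given daily. The paper describes no injection for Sham mice, so contusion and injection cannot be told apart in comparisons with Sham. Changes after injury below are meant in this sense. The tissue was whole cord around the lesion, which held every cell type of the site, and libraries were made from polyadenylated RNA.

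Glycolysis splits glucose into pyruvate in the cytosol. Pyruvate is either burned in mitochondria after the pyruvate dehydrogenase complex has turned it into acetyl-CoA, or reduced to lactate, which leaves the cell through monocarboxylate transporters. The pentose phosphate pathway branches off at glucose 6-phosphate and yields NADPH, used by phagocytes for the oxidative burst and by all cells for lipid synthesis and the reduction of glutathione. Most steps are served by several isoenzymes encoded by different genes. In nervous tissue some of these isoenzymes mark neurons, others astrocytes or myeloid cells, and astrocytes and oligodendrocytes are known to pass lactate to neurons.

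Several of these genes are textbook targets of the transcription factor HIF-1, which binds the core letters ACGTG, so the bases in front of 4 members from steps whose isoenzymes moved apart are shown, chosen after their values were seen. Letters come from RefSeq on build GRCm38.p6, cover the 250 bases before the first listed start, and are written 5′ to 3′ in the direction of the gene. Capitals mark each ACGTG on either strand. The E-box CACGTG reads the same on both strands and overlaps this core, so it counts as 2 matches. Ldha lies on the plus strand (chr7:46845554-46845803), Ldhb on the minus strand (chr6:142507958-142508207), Hk2 on the minus strand (chr6:82774455-82774704) and Slc16a3 on the plus strand (chr11:120948817-120949066).
Ldha: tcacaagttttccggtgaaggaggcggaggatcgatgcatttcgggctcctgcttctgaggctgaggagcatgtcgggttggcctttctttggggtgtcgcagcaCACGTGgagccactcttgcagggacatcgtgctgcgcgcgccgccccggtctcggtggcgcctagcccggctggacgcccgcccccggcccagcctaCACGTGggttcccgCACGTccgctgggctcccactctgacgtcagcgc
Ldhb: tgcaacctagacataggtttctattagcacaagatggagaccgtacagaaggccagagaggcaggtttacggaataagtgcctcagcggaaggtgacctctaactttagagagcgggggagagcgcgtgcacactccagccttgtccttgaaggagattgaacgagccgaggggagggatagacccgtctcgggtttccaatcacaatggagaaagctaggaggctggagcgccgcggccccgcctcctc
Hk2: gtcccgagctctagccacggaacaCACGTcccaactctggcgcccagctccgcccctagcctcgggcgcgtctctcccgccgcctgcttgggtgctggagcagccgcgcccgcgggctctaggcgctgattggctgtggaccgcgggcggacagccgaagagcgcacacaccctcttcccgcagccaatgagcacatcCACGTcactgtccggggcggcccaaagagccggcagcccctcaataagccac
Slc16a3: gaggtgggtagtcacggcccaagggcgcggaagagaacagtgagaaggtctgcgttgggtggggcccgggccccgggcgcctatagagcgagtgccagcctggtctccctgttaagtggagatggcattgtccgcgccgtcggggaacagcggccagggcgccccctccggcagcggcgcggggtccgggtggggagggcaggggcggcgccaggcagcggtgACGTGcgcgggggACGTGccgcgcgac
The Ldha stretch holds 5 matches, of which 4 come from 2 E-boxes, and the last match begins 34 bases before the start. The Hk2 and Slc16a3 stretches hold 2 matches each, and the Ldhb stretch holds none. Of the 33 members with an entry, 14 (42.4%) hold the core, against 16.6% of 27025 genes with an entry. By the call after injury, which is described next, the core stood in 6 of 10 members that were higher, in 2 of 6 that were lower and in 6 of 17 without a call. Pfkm and Pfkfb2, which were lower, hold 2 matches each, from 1 E-box, while Pgd, G6pdx, Taldo1 and Pfkfb4, which were higher, hold none. The letters are a description of these windows, and binding was not measured.

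After injury, 17 of the 35 members changed. Messages of the lactate exporter Slc16a3, the inducible and myeloid hexokinases (Hk2, Hk3), Ldha, the oxidative pentose phosphate enzymes and Taldo1 rose. Those of the neuronal enolase Eno2, the neuronal glucose transporter Slc2a3, Ldhb and the phosphofructokinase subunits Pfkm and Pfkp fell. The common lower steps of glycolysis did not pass the limits. Levels are given as CPM, the count of a gene scaled to a common depth of library. A call needed a log2 fold change of 0.5 or more in size together with an adjusted p below 0.05, both from edgeR's quasi-likelihood fit and adjusted by Benjamini-Hochberg over the 18699 genes. In SCI against Sham, 10 members (28.6%) were higher, where 24.4% of all genes tested were higher, and 7 (20%) were lower, where 22.5% of all genes were lower. The groups did not overlap for 27 members (77.1%), against 70.5% of all genes. The exact permutation test of log2 CPM gave p = 0.1 for each of these 27, the smallest that 3 mice against 3 can give. The share of members that changed was close to that of all genes, and the median log2 fold change of the members was -0.001. Summed over the members, the level was 9759 to 10430 CPM in the Sham mice and 8181 to 9203 CPM in the SCI mice.

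**Figure D1:**
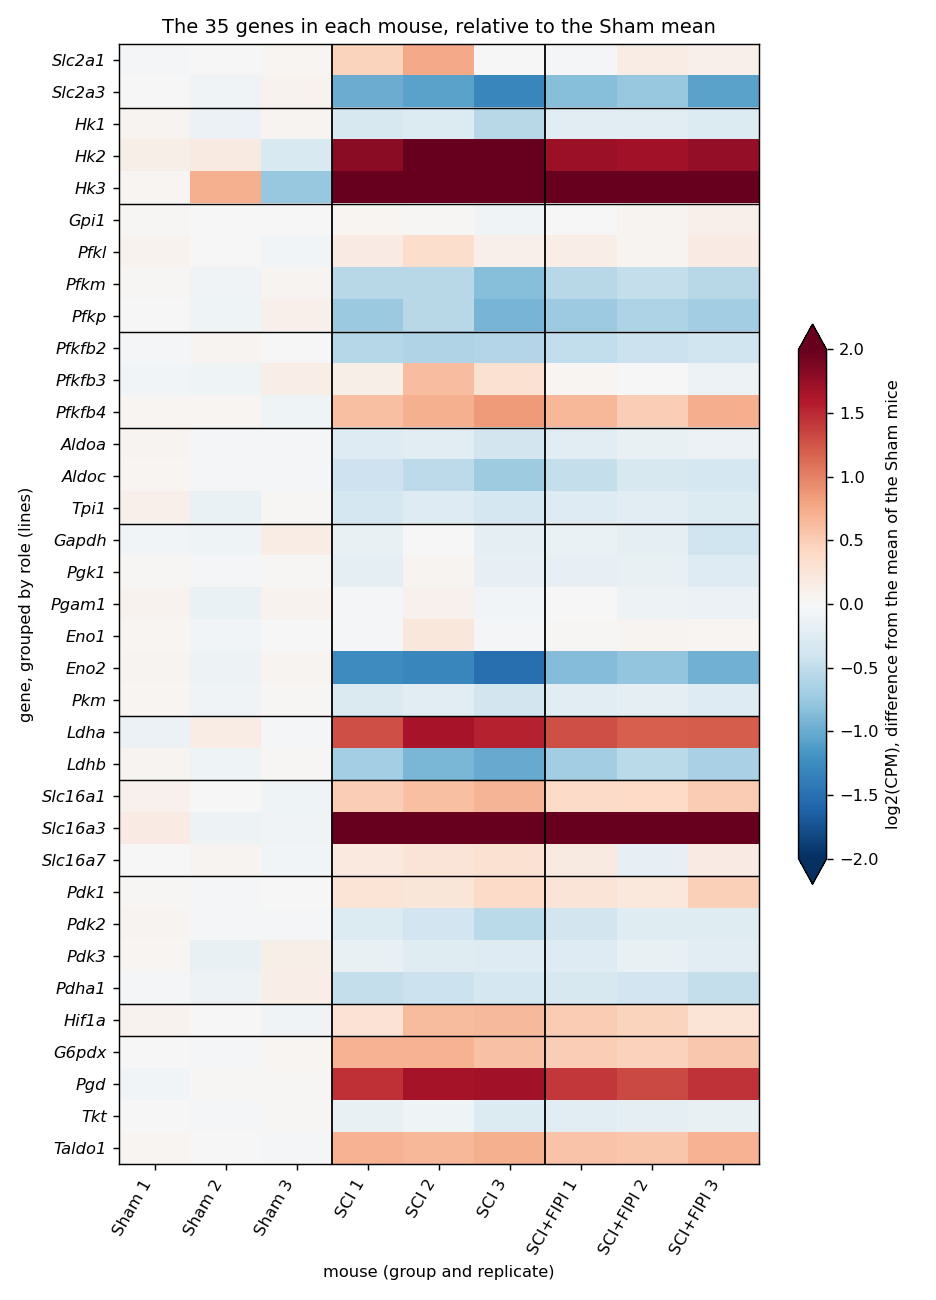
Colour gives the log2 CPM of each of the 35 genes (rows, grouped by role) in each of the 9 mice (columns), less the mean of the 3 Sham mice; the scale is clipped at 2 on either side. Hk2, Hk3, Ldha, Slc16a3 and Pgd are red in all 6 injured mice, while Slc2a3, Eno2 and Ldhb are blue in all 6.

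Markers of cell types moved with injury as well. All 12 neuronal markers were lower in SCI than in Sham (median log2 fold change -1.74), and their summed level was 7731 to 8711 CPM in Sham, 2242 to 3259 CPM in SCI and 3780 to 4526 CPM in SCI+FIPI mice. Of 12 microglial and macrophage markers, 11 were higher in SCI (median 2.16), with sums of 433.1 to 591.6 CPM in Sham, 6074 to 7298 CPM in SCI and 4427 to 5684 CPM in SCI+FIPI mice. Of 8 astrocyte markers 3 were higher and 2 lower (median 0.08, with 4 positive and 4 negative log2 fold changes). Their sum, which weighs abundant genes most, was 8167 to 8562 CPM in Sham and 12090 to 13920 CPM in SCI. All 5 fibroblast markers and all 5 cell cycle markers were higher, and 5 of 8 oligodendrocyte markers were lower. No marker of these lists was at 0 in every mouse. The part of these shifts in the values of the members was not tested, and in whole cord fewer cells of a type and less RNA per cell cannot be told apart.

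Glucose enters nervous tissue mainly through GLUT1, encoded by Slc2a1 and dense in endothelium and glia, and enters neurons through GLUT3, encoded by Slc2a3. Slc2a3 was measured at 83.8, 79.4 and 88.1 CPM in the Sham mice, 41.9, 39.7 and 33.7 in the SCI mice and 46.2, 49.7 and 40.1 in the SCI+FIPI mice. Every injured mouse lay below every Sham mouse. The transporter fell by 1.12 on the log2 scale in SCI against Sham (SE 0.090, n = 3 mice a group, edgeR adjusted p = 7.31e-08). Slc2a1 was measured at 165.3, 168.2 and 174.7 CPM in Sham, 231.2, 287.9 and 169.6 in SCI and 166.2, 188.3 and 181.0 in SCI+FIPI mice. The SCI mice were spread widely, and the third SCI mouse lay among the Sham mice. The log2 fold change of Slc2a1 was 0.44 (SE 0.17, edgeR adjusted p = 0.045), under the fold limit, and without the third SCI mouse it was 0.62 and passed.

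Hexokinases trap glucose in the cell as glucose 6-phosphate. Hk1, the housekeeping form of brain, stood at 319.5, 286.1 and 322.5 CPM in Sham, 247.2, 256.5 and 210.0 in SCI and 262.7, 265.2 and 256.0 in SCI+FIPI mice, with a log2 fold change of -0.38 in SCI against Sham that did not reach the fold limit. Hk2, the inducible form, stood at 12.2, 12.7 and 9.03 CPM in Sham, 39.2, 47.6 and 47.9 in SCI and 36.6, 35.9 and 38.0 in SCI+FIPI mice. It rose 3.98-fold after injury (log2 1.99, SE 0.12, edgeR adjusted p = 4.45e-09), with no overlap between the Sham and the injured mice. Hk3, the form of myeloid cells, stood at 5.03, 8.03 and 2.88 CPM in Sham, 55.9, 70.9 and 65.6 in SCI and 50.3, 34.7 and 37.3 in SCI+FIPI mice. It had the largest rise of the 35 members, at 12.1-fold (log2 3.59, SE 0.33, edgeR adjusted p = 4.86e-05). Hk3 overlaps the end of Unc5a on the opposite strand by 34 bases. Unc5a had 970, 954 and 1150 counts in Sham and 559, 523 and 374 in SCI mice. Hk3 had 105, 186 and 69 counts in Sham and 1333, 1715 and 1556 in SCI mice. The largest share, 1667% of the count of Hk3, was in the third Sham mouse. The part of Unc5a reads in the count of Hk3 was not tested. Whether counting used the strand is not given in the sources used here.

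Measured per length of gene, as counts scaled to depth and exonic length (FPKM), the 3 hexokinases can be set side by side. Their summed level was 41.0, 38.7 and 40.0 FPKM in the Sham mice and 50.2, 56.4 and 49.9 FPKM in the SCI mice. Hk1 held 91.7%, 88.6% and 94.3% of this sum in Sham, 57.1%, 52.5% and 48.8% in SCI and 60.9%, 66.8% and 64.5% in SCI+FIPI mice. Hk3 held 3.34%, 5.77% and 1.95% in Sham, 29.9%, 33.6% and 35.3% in SCI and 27.0%, 20.3% and 21.8% in SCI+FIPI mice. Hk2 held 4.99%, 5.62% and 3.77% in Sham, 12.9%, 13.9% and 15.9% in SCI and 12.1%, 12.9% and 13.7% in SCI+FIPI mice. Hk1 held the largest share of the 3 forms in every mouse, and its share was lower in all injured mice than in any Sham mouse. The log2 ratio of Hk3 to Hk1 was 4.09 higher in SCI than in Sham (exact two-sided permutation test, p = 0.1; adjusted over 13 ratios, p = 0.118).

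Phosphofructokinase catalyses the committed step of glycolysis, and its 3 subunits are named for muscle (Pfkm), liver (Pfkl) and platelet (Pfkp). Pfkm stood at 451.6, 423.4 and 463.4 CPM in Sham, 302.6, 304.9 and 248.4 in SCI and 303.8, 321.7 and 301.9 in SCI+FIPI mice. Pfkp stood at 306.1, 290.2 and 329.2 CPM in Sham, 184.9, 209.3 and 162.5 in SCI and 186.1, 200.1 and 189.4 in SCI+FIPI mice. Both fell after injury, by 0.65 (SE 0.078) and by 0.73 (SE 0.083) on the log2 scale, with edgeR adjusted p-values of 3.48e-06 and 1.86e-06, and neither overlapped the Sham group. Pfkl stood at 115.5 to 125.1 CPM in Sham, 128.5 to 153.0 in SCI and 124.9 to 134.1 in SCI+FIPI mice, and had a log2 fold change of 0.21 (edgeR adjusted p = 0.0143), under the fold limit. The call for Pfkp was lost when GC content and length were included as offsets, at a log2 fold change of -0.43. Pfkm remained the major subunit, at 76.5% ± 0.27 (SD, n = 3) of the summed FPKM in Sham and 71.2% ± 1.4 (SD, n = 3) in SCI. The size of these shares rests on the exonic length, 3340 bases for Pfkm and 13401 for Pfkp. By CPM, Pfkm was also the highest of the 3 in every mouse.

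The Pfkfb enzymes make and break fructose 2,6-bisphosphate, the allosteric activator of phosphofructokinase. Pfkfb4 stood at 26.6, 26.6 and 24.4 CPM in Sham, 39.3, 42.4 and 46.6 in SCI and 41.0, 36.5 and 42.8 in SCI+FIPI mice. It rose after injury (log2 0.73, SE 0.083, edgeR adjusted p = 2.04e-06). Pfkfb2 stood at 30.3, 32.4 and 31.3 CPM in Sham, 21.0, 20.6 and 20.8 in SCI and 22.3, 23.2 and 23.9 in SCI+FIPI mice. It fell by 0.59 on the log2 scale (SE 0.071, edgeR adjusted p = 3.2e-06), a call that was lost with the GC and length offsets at -0.44. Pfkfb3, the form best known for driving glycolysis in activated cells, was measured at 97.2, 94.9 and 109.8 CPM in Sham, 108.8, 154.7 and 124.2 in SCI and 103.0, 100.3 and 93.1 in SCI+FIPI mice. Its log2 fold change of 0.36 after injury was under the fold limit, and the first SCI mouse lay among the Sham mice.

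Among the aldolases, which cleave the 6-carbon sugar, Aldoc is the brain form and a marker of astrocytes. Aldoc stood at 1774, 1684 and 1699 CPM in Sham, 1296, 1191 and 1053 in SCI and 1236, 1372 and 1346 in SCI+FIPI mice, and had the highest FPKM of the 35 members in every group. It fell by 0.54 on the log2 scale after injury (SE 0.079, edgeR adjusted p = 2.47e-05). The call rested on the third SCI mouse, without which the log2 fold change was -0.46. Aldoa, the form found in most tissues, stood at 790.3 to 844.0 CPM in Sham, 628.3 to 692.6 in SCI and 694.7 to 745.0 in SCI+FIPI mice, a log2 fold change of -0.28 after injury (SE 0.065). Tpi1, which interconverts the 3-carbon products, stood at 394.5 to 461.6 CPM in Sham, 336.3 to 358.5 in SCI and 358.0 to 368.6 in SCI+FIPI mice, a log2 fold change of -0.32 (SE 0.066). Neither reached the fold limit, although no SCI mouse lay among the Sham mice for these genes, and Tpi1 was called lower, at -0.53, with the GC and length offsets. Gpi1, the isomerase after hexokinase, stood at 399.6 to 408.6 CPM in Sham and 385.9 to 415.7 CPM in SCI mice, and the groups overlapped.

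The payoff steps below triose phosphate were close to level, except for 1 enolase. Gapdh, Pgk1, Pgam1, Eno1 and Pkm had log2 fold changes of -0.12, -0.09, -0.00, 0.07 and -0.29 in SCI against Sham, and none was called. Pgk1, which makes the first ATP of this stretch, stood at 362.3 to 379.4 CPM in Sham, 328.5 to 387.8 in SCI and 311.9 to 336.0 in SCI+FIPI mice. Pgam1, the mutase before enolase, stood at 297.2 to 344.4 CPM in Sham, 315.5 to 348.0 in SCI and 302.3 to 325.9 in SCI+FIPI mice, and Eno1 at 584.1 to 626.1, 598.0 to 712.4 and 615.3 to 631.9 CPM. Pkm, pyruvate kinase of most tissues, was the only one of these 5 whose Sham and SCI mice did not overlap, at 1245 to 1344 CPM in Sham and 1015 to 1122 CPM in SCI mice. Eno2, neuron-specific enolase, stood at 852.3, 761.5 and 845.9 CPM in Sham, 344.2, 332.6 and 286.9 in SCI and 447.8, 475.3 and 419.0 in SCI+FIPI mice. The 3 groups did not overlap, with SCI lowest and SCI+FIPI between SCI and Sham. Eno2 fell by 1.35 on the log2 scale after injury (SE 0.081, edgeR adjusted p = 2.58e-09), the largest fall among the members. Eno1, the form of most other cells, held 39.1%, 40.2% and 38.7% of the summed enolase FPKM in Sham, 60.4%, 65.2% and 64.6% in SCI and 54.6%, 53.8% and 56.4% in SCI+FIPI mice.

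Counts of some of these lower steps are uncertain because near-identical copies can share their reads. Gapdh stood at only 109.6 to 159.8 CPM over the 9 mice, while 53 copies that share at least 5% of its 50-base stretches together held 170% to 277% of its own count in a mouse. With the copies added, a setting chosen after seeing the data, the log2 fold change of Gapdh in SCI against Sham was 0.03. Of the stretches of Eno1, 72.2% occur in other genes, with 68.0% for Pgk1, 41.5% for Pgam1 and 34.4% for Pkm. For Eno1 these copies held at most 3.39% of its count, and for Pkm at most 3.71%. The shares of Eno1 in the enolase sum rest on these counts and on exonic lengths of 5379 bases for Eno1 and 4705 for Eno2.

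Lactate dehydrogenase is a tetramer of 2 kinds of subunit. Ldha favours lactate formation and is known from glycolytic cells, and Ldhb favours lactate use and is known from neurons and heart. Ldha stood at 101.0, 121.5 and 108.6 CPM in Sham, 269.2, 344.3 and 321.3 in SCI and 267.9, 251.1 and 253.8 in SCI+FIPI mice. Ldhb stood at 536.5, 487.8 and 523.2 CPM in Sham, 320.7, 273.5 and 255.3 in SCI and 318.7, 353.2 and 328.2 in SCI+FIPI mice. The subunits moved apart with no overlap between Sham and SCI. Ldha rose 2.82-fold (log2 1.50, SE 0.090, edgeR adjusted p = 5.28e-09), while Ldhb fell by 0.87 on the log2 scale (SE 0.081, edgeR adjusted p = 2.51e-07).

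The summed lactate dehydrogenase level was 374, 355 and 365 FPKM in Sham, 282, 274 and 257 FPKM in SCI and 284, 302 and 287 FPKM in SCI+FIPI mice, so the sum was lower in every injured mouse. Ldha held 8.20%, 10.6% and 8.96% of it in Sham, 28.5%, 37.4% and 37.4% in SCI and 28.5%, 25.2% and 26.8% in SCI+FIPI mice. Ldhb remained the major subunit message in all 9 mice. The log2 ratio of Ldha to Ldhb was -3.30 ± 0.21 (SD, n = 3) in Sham, -0.94 ± 0.34 in SCI and -1.45 ± 0.12 in SCI+FIPI mice. The ratio was 5.15-fold higher in SCI than in Sham (exact two-sided permutation test, p = 0.1; adjusted over 13 ratios, p = 0.118).

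**Figure D2:**
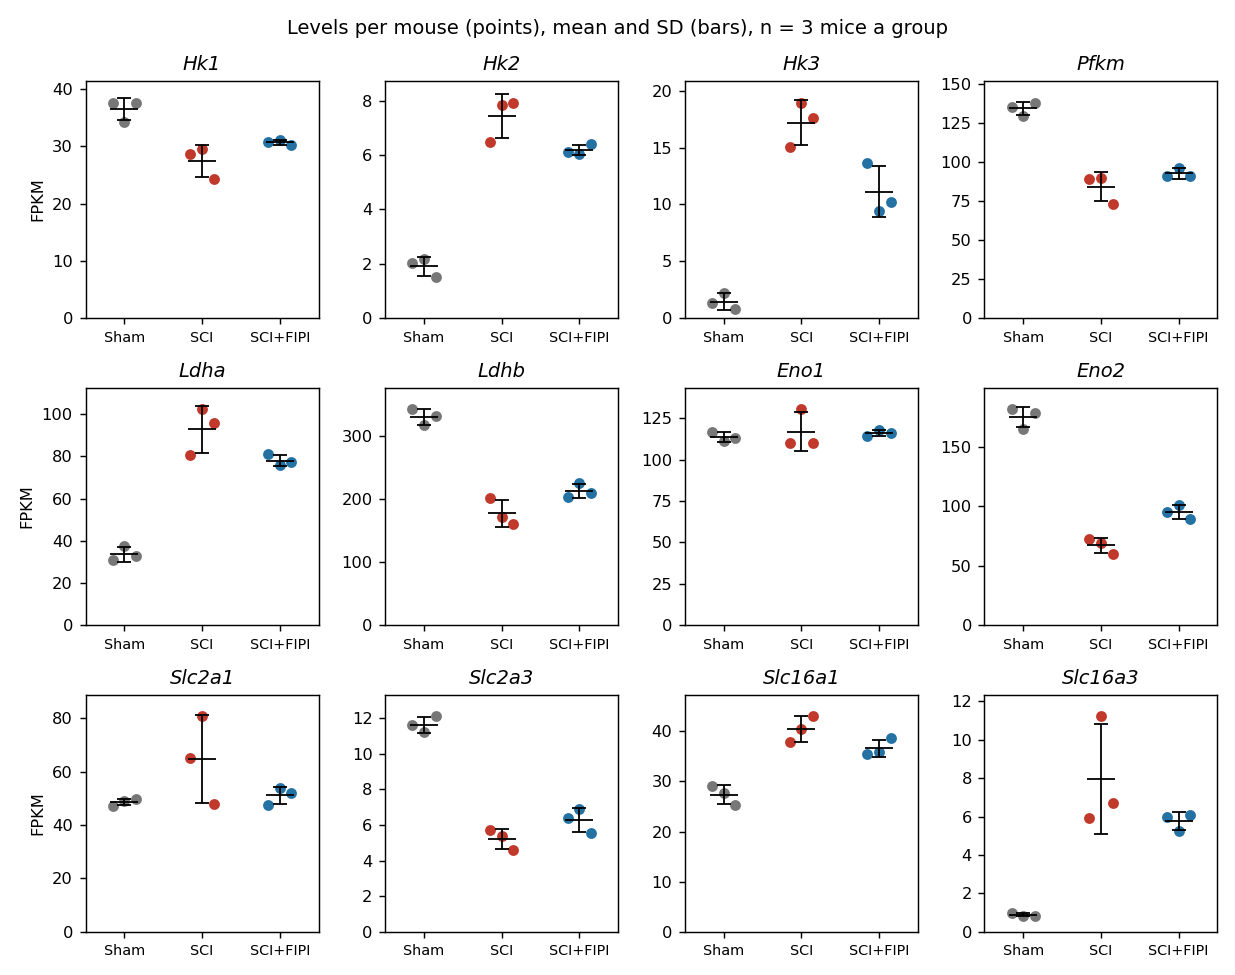
FPKM of 12 members in each mouse (points) with the mean and SD of the 3 mice of a group (bars); each panel has its own linear axis from 0. Hk2, Hk3, Ldha, Slc16a1 and Slc16a3 lie above Sham in all 6 injured mice, and Hk1, Pfkm, Ldhb, Eno2 and Slc2a3 below, while Eno1 and Slc2a1 overlap Sham.

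Monocarboxylate transporters carry lactate and pyruvate with a proton. Slc16a3 encodes MCT4, the low-affinity exporter of strongly glycolytic cells, and had the lowest FPKM of the 35 members in Sham cord. It stood at 5.22, 4.36 and 4.47 CPM in Sham, 31.9, 60.7 and 36.1 in SCI and 31.8, 27.9 and 32.1 in SCI+FIPI mice. All injured mice lay above the Sham mice, and the second SCI mouse stood apart from the other two. The rise was 9.17-fold (log2 3.20, SE 0.27, edgeR adjusted p = 1.29e-05), and without the second SCI mouse it was 2.87 on the log2 scale. Slc16a1 encodes MCT1 of endothelium and oligodendrocytes, and stood at 127.9, 120.1 and 112.6 CPM in Sham, 169.3, 182.4 and 192.6 in SCI and 156.6, 158.3 and 169.9 in SCI+FIPI mice. It rose 1.51-fold after injury (log2 0.59, SE 0.067, edgeR adjusted p = 1.64e-06). Slc16a7 encodes MCT2, the high-affinity importer of neurons, and stood between 10.9 and 15.1 CPM in all 9 mice, with a log2 fold change of 0.26 under the fold limit. With GC and length offsets Slc16a7 was called higher, at 0.67.

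Slc16a1 remained the major transporter message of these 3, at 93.4% ± 0.12 (SD, n = 3) of their summed FPKM in Sham and 81.7% ± 4.5 in SCI. Slc16a3 held 3.18%, 2.83% and 3.08% in Sham, 13.2%, 21.2% and 13.2% in SCI and 14.1%, 12.5% and 13.2% in SCI+FIPI mice. The log2 ratio of Slc16a3 to Slc16a7, exporter to neuronal importer, was 2.88 higher in SCI than in Sham (exact two-sided permutation test, p = 0.1; adjusted over 13 ratios, p = 0.118).

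**Figure D3:**
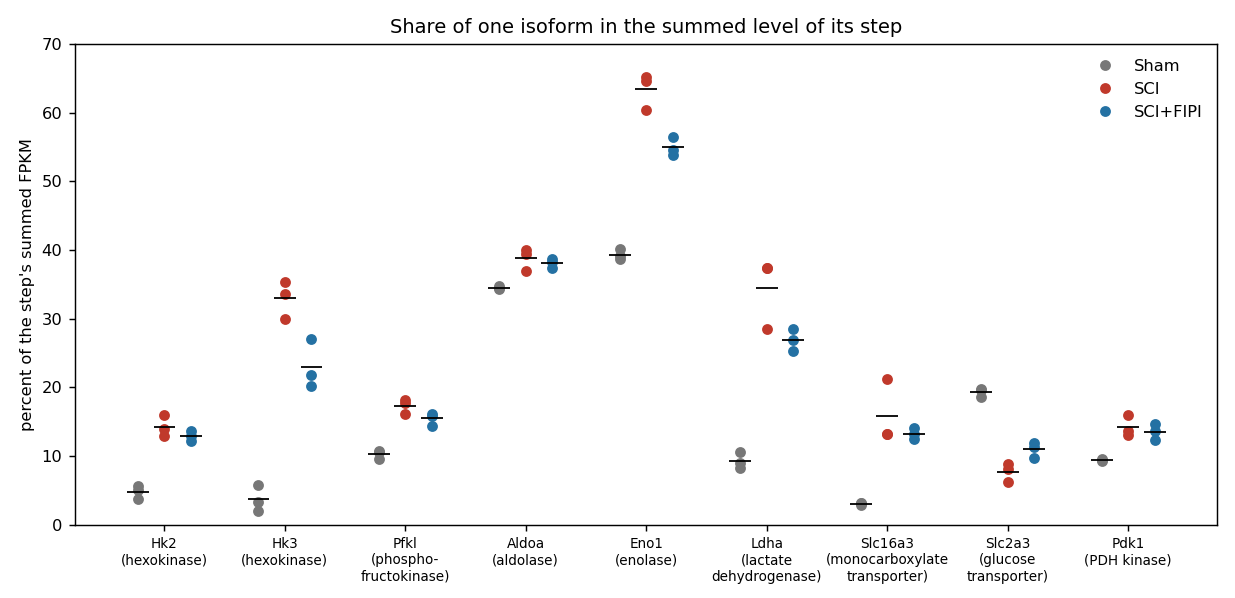
Points give, for each mouse, the percent of the summed FPKM of a step that 1 of its genes holds, and lines give the group mean (n = 3 mice). Hk3, Eno1, Ldha and Slc16a3 hold more in every SCI mouse than in any Sham mouse, and Slc2a3 less; Eno1 goes from 39.3% to 63.4% in the mean.

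Pyruvate dehydrogenase admits pyruvate to the mitochondrion, and its kinases switch it off. None of the 4 members of this step was called in SCI against Sham. Pdha1, the catalytic alpha subunit, stood at 115.9 to 136.6 CPM in Sham, 88.8 to 96.9 in SCI and 89.4 to 99.99 in SCI+FIPI mice. Pdk2 stood at 140.1 to 148.1 CPM in Sham, 98.2 to 118.3 in SCI and 111.3 to 121.5 in SCI+FIPI mice, and Pdk1 at 43.7 to 44.8, 52.4 to 57.8 and 51.6 to 62.0 CPM. For these 3 genes no SCI mouse lay among the Sham mice. Pdha1 had a log2 fold change of -0.43 (SE 0.069), Pdk2, the kinase with the highest FPKM of the 3, one of -0.40 (SE 0.069), Pdk3 one of -0.22 (SE 0.086), and Pdk1, a HIF-1 target, one of 0.30 (SE 0.073). All 4 passed the adjusted p limit of edgeR and missed the fold limit. Pdk2 was called lower, at -0.58, with the GC and length offsets. In a wider list that also holds transporters and enzymes outside the complex, of 15 other genes of lactate and pyruvate handling tested, 8 (53.3%) were lower and 1 (6.67%) higher, and the median log2 fold change was -0.58. Dlat, the acetyltransferase core of the complex, fell by 0.90, and Pdp1, the phosphatase that switches the complex on, fell by 0.81, on the log2 scale. Slc16a8, a further lactate transporter, was the gene that rose (log2 0.79).

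Hif1a, the regulated subunit of HIF-1, stood at 88.2, 84.5 and 80.6 CPM in Sham, 102.6, 131.2 and 132.5 in SCI and 120.3, 114.7 and 101.9 in SCI+FIPI mice. All injured mice lay above the Sham mice. It rose by a log2 fold change of 0.53 in SCI against Sham (SE 0.095, edgeR adjusted p = 0.000272), close to the limit. The call was lost without the third Sham mouse (0.499), without the second (0.48) or the third SCI mouse (0.47), and with upper-quartile factors (0.47). HIF-1 is controlled mainly through the stability of its protein, which was not measured. Of 9 other HIF pathway regulators, edgeR called 0 after injury, limma-voom called 1 lower, Arnt2, and DESeq2 called 0. In edgeR 7 had an unadjusted p under 0.05, a limit at which the share of all genes was not counted. Of 13 hypoxia-inducible genes outside glycolysis, 4 (30.8%) were higher and 4 (30.8%) lower, against 24.4% and 22.5% of all genes. For this list limma-voom called 3 higher and 4 lower. Car9, a carbonic anhydrase, rose most (log2 3.00), from only 7, 5 and 10 counts in Sham to 53, 65 and 70 in SCI mice. The collagen prolyl hydroxylase P4ha1 came next (0.69), while Car12, another carbonic anhydrase, fell by 1.07 and the mitophagy receptor Bnip3 fell by 0.99.

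The pentose phosphate members of the oxidative branch, where NADPH is made, rose, and so did Taldo1 outside it. Pgd, phosphogluconate dehydrogenase, stood at 52.0, 54.6 and 54.6 CPM in Sham, 148.1, 170.7 and 171.5 in SCI and 142.6, 134.0 and 145.8 in SCI+FIPI mice. It rose 3.04-fold after injury (log2 1.60, SE 0.068, edgeR adjusted p = 1.2e-10), the smallest p of the 35. G6pdx, the gatekeeper enzyme of the pathway, stood at 55.3, 53.4 and 56.3 CPM in Sham, 89.2, 88.9 and 82.9 in SCI and 77.7, 75.5 and 79.7 in SCI+FIPI mice. It rose 1.58-fold (log2 0.66, SE 0.056, edgeR adjusted p = 8.98e-08), and the 3 groups did not overlap. G6pdx shares 418 bases with Ikbkg on the opposite strand, and Ikbkg had up to 68.0% of the count of G6pdx in a mouse. Ikbkg had 706, 841 and 813 counts in Sham and 986, 971 and 1050 in SCI mice. Exons of 14 of the 35 members overlap another gene on the opposite strand. Among these genes, Iffo1 reached 134% of the count of Gapdh, Yod1 55.1% of Pfkfb2 and Pitrm1 31.7% of Pfkp. The part of such reads in the members was not tested. In the branch that rearranges sugars, Taldo1 stood at 133.4 to 139.7 CPM in Sham, 214.2 to 223.1 CPM in SCI and 198.9 to 218.9 CPM in SCI+FIPI mice, and rose 1.61-fold (log2 0.69, SE 0.057, edgeR adjusted p = 6.62e-08), a call lost with the GC and length offsets at 0.47. Tkt, its partner transketolase, stood at 167.3 to 173.2 CPM in Sham, 141.5 to 160.8 in SCI and 146.7 to 154.4 in SCI+FIPI mice, and had a log2 fold change of -0.17 (SE 0.059). In a wider list of the pentose phosphate pathway and adjoining steps, of 9 other enzymes tested, 4 (44.4%) were higher and 2 (22.2%) lower. The shares of all genes were 24.4% and 22.5%. H6pd, the enzyme of the oxidative branch in the endoplasmic reticulum, rose by a log2 fold change of 2.18 and Pgls, the lactonase between G6pdx and Pgd, by 1.40. Pgm2l1, which makes glucose bisphosphate, fell by 1.49, and the ribose phosphate activator Prps1 fell by 0.63.

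The second question was whether FIPI changed these genes in the injured cord. In SCI+FIPI against SCI, edgeR called 0 of the 35 members higher, where 2.36% of all genes tested were higher, and 0 lower, where 0.695% were lower. At an unadjusted p under 0.05 in edgeR, 4 members were higher and 7 lower. The share of all genes at this looser limit was not counted, so these counts cannot be set against the shares above. DESeq2 also called 0, and limma-voom called 1 lower, Hk3 (log2 -0.67, adjusted p = 0.0224). The groups did not overlap for 10 members (28.6%), against 30.2% of all genes, and the median log2 fold change of the members was -0.03. Eno2 was the member nearest to a call. Its level was 1.39-fold higher in SCI+FIPI than in SCI (log2 0.48, SE 0.080, edgeR adjusted p = 0.00456), the only adjusted p under the limit among the 35, and the change was under the fold limit. It passed both limits without the first SCI mouse (0.54), the second SCI mouse (0.50) or the third SCI+FIPI mouse (0.52). In the same comparison, 8 of the 12 neuronal markers were higher (median log2 fold change 0.58), and the part of this in the value of Eno2 was not tested.

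The log2 fold change of Hk3 in SCI+FIPI against SCI was -0.65 (95% interval -1.30 to -0.01, edgeR adjusted p = 0.192), and the 34.7 to 50.3 CPM of the SCI+FIPI mice lay below the 55.9 to 70.9 CPM of the SCI mice. For Pgd it was -0.21 (95% interval -0.35 to -0.08, edgeR adjusted p = 0.0512), for Pfkfb3 -0.39 (95% interval -0.64 to -0.14, edgeR adjusted p = 0.0579) and for Ldha -0.27 (95% interval -0.46 to -0.09, edgeR adjusted p = 0.0649). On the CPM scale these 4 genes had no overlap between the groups, and they missed the adjusted p limit. In the same mice, 1 of the 12 microglial and macrophage markers, Spi1, was lower (log2 -0.52) and the median of the list was -0.41. The interval of Slc16a3 was -1.02 to 0.04, so a large change was not resolved for this gene, whereas that of Gpi1, -0.08 to 0.17, and that of Tkt, -0.14 to 0.11, lay within the fold limit on either side. Slc2a1 had a log2 fold change of -0.36 with overlapping groups, and without the third SCI mouse it was called lower, at -0.54.

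The balance of isoenzymes was also compared between the injured groups. Of the 13 log2 FPKM ratios, 6 had no overlap between SCI+FIPI and SCI mice, and all had an adjusted exact permutation p of at least 0.217. Eno1 to Eno2 was 0.79 ± 0.16 (SD, n = 3) in SCI and 0.29 ± 0.080 in SCI+FIPI mice. Hk3 to Hk1 was -0.68 ± 0.24 in SCI and -1.49 ± 0.28 in SCI+FIPI mice. Slc2a1 to Slc2a3 was 3.60 ± 0.27 in SCI and 3.03 ± 0.17 in SCI+FIPI mice. The ratio of Ldha to Ldhb overlapped, since the first SCI mouse, with the lowest Ldha share of its group, lay at the level of the first SCI+FIPI mouse.

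**Figure D4:**
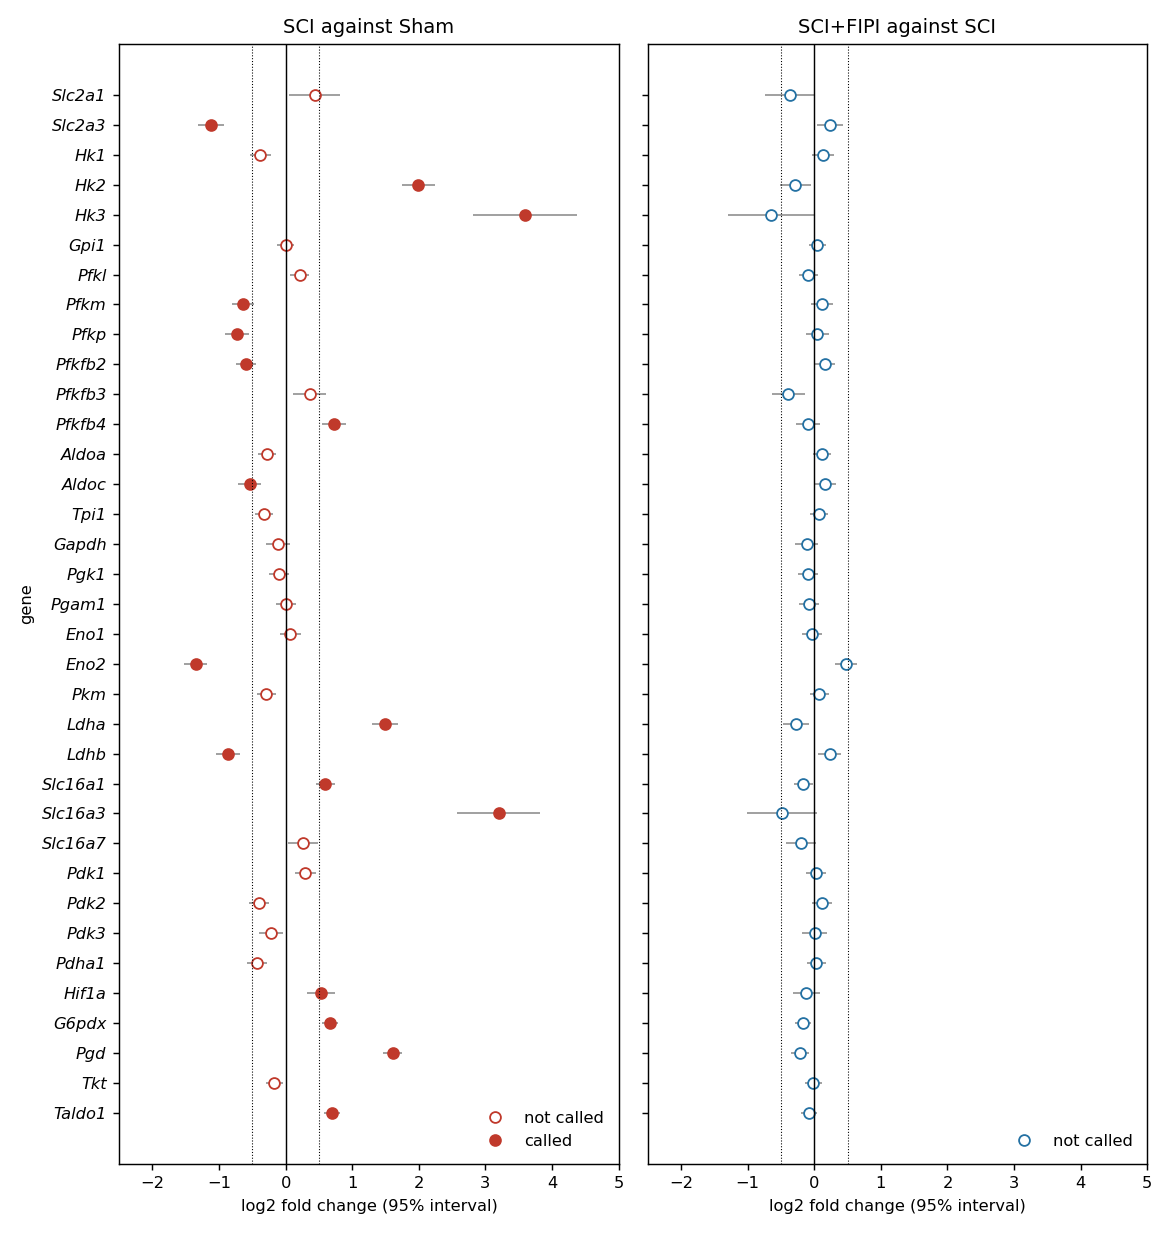
Log2 fold change of each of the 35 genes with its 95% interval, for SCI against Sham (left) and SCI+FIPI against SCI (right); filled points passed both limits, open points did not, and dotted lines mark the fold limit of 0.5. On the left 10 genes lie to the right and 7 to the left as filled points; on the right no point is filled.

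The last comparison set the treated injured cord against Sham. In SCI+FIPI against Sham, 7 members (20%) were higher, where 21.2% of all genes tested were higher, and 5 (14.3%) were lower, where 17% of all genes were lower. The groups did not overlap for 27 members, against 66.3% of all genes. The higher members were Hk2 (log2 1.71), Hk3 (2.94), Pfkfb4 (0.63), Ldha (1.22), Slc16a3 (2.71), Pgd (1.39) and Taldo1 (0.61). The lower members were Slc2a3 (-0.89), Pfkm (-0.53), Pfkp (-0.69), Eno2 (-0.87) and Ldhb (-0.63). With GC and length offsets the calls of Taldo1 (0.40) and Pfkp (-0.41) were lost, with or without the replicate block. In the same order, the log2 fold changes of SCI against Sham were 1.99, 3.59, 0.73, 1.50, 3.20, 1.60 and 0.69 for the higher genes and -1.12, -0.65, -0.73, -1.35 and -0.87 for the lower genes. These comparisons share the Sham mice. Slc16a1, Hif1a, G6pdx, Pfkfb2 and Aldoc, which were called in SCI against Sham, had log2 fold changes of 0.43, 0.41, 0.497, -0.44 and -0.38 in SCI+FIPI against Sham and missed the fold limit there. A call in one comparison and none in the other does not show that the groups differ, and the direct comparison of SCI+FIPI with SCI gave no call for these 5 genes. With GC and length offsets Hif1a (0.59), Slc16a1 (0.505) and Aldoc (-0.53) passed the limit in SCI+FIPI against Sham, with or without the block. G6pdx passed it there without the first Sham mouse (0.50), the third Sham mouse (0.51) or the second SCI+FIPI mouse (0.52), with no filter (0.51), with at least 10 counts in every mouse (0.51) and with the compared groups alone (0.51).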

How the data were processed

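RNA of the spinal cord of 9 mice was sequenced from polyadenylated RNA. The authors deposited raw counts per gene, without normalization, in 1 table of 52550 genes. The submitters' processing notes name build GRCm38 and R 4.2.3. The aligner, the counting program, the annotation and the use of strand are not given in the sources used here. Gene identifiers were matched to GENCODE M21 for symbols, exonic length and GC content, and 52403 were found.

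Counts per mouse lay between 20806000 and 24582377. The analysis used R 4.3.3 and edgeR 4.0.16 (TMM factors, filterByExpr, robust quasi-likelihood fit of all 9 mice, Benjamini-Hochberg adjustment over 18699 genes). The limits, a log2 fold change of 0.5 and an adjusted p of 0.05, come from the study's methods, which name no test. The biological coefficient of variation common to all genes was 9.3%. Standard errors of members came from the fit of each gene and were 0.056 to 0.33 on the log2 scale in SCI against Sham. CPM used the TMM factors, and FPKM divided each count by the depth of the mouse and the exonic length. That length covers all annotated exons of a gene together, so levels and shares compared between genes depend on it. Mice of a group differed by more than sampling noise, so each counted as 1 replicate. The sources name the samples as separate mice of a group, so p-values measure the spread between these animals.

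Alternatives were DESeq2 1.42.0, limma-voom (limma 3.58.1), other factors and filters, GC and length offsets, a replicate block, no fold limit and leaving out each mouse. Isoenzyme ratios were compared with exact permutation tests in scipy 1.17.1. The fits were also tried on simulated counts with far fewer changed genes than were called after injury. A shift as broad as that after injury was not simulated. All 35 members are named, and of each other list at most 2 rises and 2 falls. The members, 13 ratios, 7 other pathway lists and 11 marker lists were chosen with earlier results of these data known. Promoter sequences were read from RefSeq, which had an entry for 33 members. Python 3.11.15 with matplotlib 3.10.9 was used for figures.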

Additional observations from a re-analysis of the deposited data

How the results depend on the processing

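In SCI against Sham the number of members called higher stayed at 9 or 10 and the number called lower at 6 or 7 under each alternative except no fold limit, which gave 15 and 15. In SCI+FIPI against SCI, where 0 were called either way, no fold limit gave 1 higher, and limma-voom and a fit of the compared groups alone each gave 1 lower. With a mouse left out, 0 to 1 were higher and 0 to 1 lower in that comparison. In SCI+FIPI against Sham, no fold limit gave 11 higher and 17 lower, against 7 to 8 and 5 elsewhere. Of 1785 log2 fold changes of members under the alternatives other than no fold limit, 1703 kept their direction and side of the limits, 25 gained a call, 15 lost it and 42 changed sign, none of them a called one. The cause of these changes was not tested.

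Mice with the same replicate number are different animals. Correlations of same-numbered mice were -0.073 to 0.108, and in 9 of 18 cases the closest mouse of another group had the same number. The replicate block gave 10 higher and 7 lower in SCI against Sham, 0 and 0 in SCI+FIPI against SCI, and 7 and 5 in SCI+FIPI against Sham, and changed no call.

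Sign changes concerned log2 fold changes near 0. In SCI against Sham, Gpi1 was -0.063 with upper-quartile factors, -0.06 with GC and length offsets with or without the replicate block, and -0.02 to 0.038 with a mouse left out. Eno1 was -0.043 with the offsets, -0.047 with offsets and replicate block, and -0.017 to 0.115 with a mouse left out. Pgam1 was 0.02 with no filter, 0.001 with at least 10 counts in every mouse, with the replicate block and by limma-voom, 0.007 with the compared groups alone, and -0.068 to 0.034 with a mouse left out. Gapdh was 0.029 with its copies summed, and 0.026 in SCI+FIPI against Sham, a setting chosen after seeing the data. In SCI+FIPI against Sham, Eno1 was -0.008 with upper-quartile factors, -0.061 with the offsets and -0.062 with offsets and block, Pfkfb3 was 0.013 with the offsets in both fits and -0.068 to 0.041 with a mouse left out, and Slc2a1 was -0.09 and -0.095. In SCI+FIPI against SCI, Tkt was 0.007 with upper-quartile factors. With a mouse left out of that comparison, Tkt was -0.064 to 0.026, Pdk1 -0.062 to 0.075, Eno1 -0.075 to 0.056, Pdk3 -0.026 to 0.048, Pfkp -0.039 to 0.143 and Pdha1 -0.007 to 0.074, and the log2 ratios of Slc16a3, Slc16a1 to Slc16a7 and of Pdk1 to Pdk2 were -0.389 to 0.042, -0.064 to 0.116 and -0.176 to 0.015.

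With 3 mice a group, exact tests of the ratios cannot give a p under 0.1. In SCI against Sham, Hk3 and Slc16a3 had the widest standard errors of the members (0.33 and 0.27 on the log2 scale).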

Other observations

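Genes around the 35 members were described from lists chosen with earlier results of these data known, so they are values and not independent evidence. Of 18 genes of the tricarboxylic acid cycle, 8 (44.4%) were lower and 2 (11.1%) higher in SCI against Sham by edgeR's quasi-likelihood test. Their median log2 fold change was -0.35. Among all genes tested, 22.5% were lower and 24.4% higher. Mdh1, cytosolic malate dehydrogenase, fell by 1.18 and Sucla2, a succinyl-CoA ligase subunit, fell by 1.08, while Idh2, which makes mitochondrial NADPH, rose by 0.82 and Suclg2, another ligase subunit, by 0.53. The summed level of the list was 3622 to 3989 CPM in Sham, 2501 to 2710 CPM in SCI and 2762 to 2915 CPM in SCI+FIPI mice.

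Of 16 glycogen genes, 3 (18.8%) were higher and 2 (12.5%) lower after injury, against 24.4% and 22.5% of all genes. The liver form of glycogen phosphorylase, Pygl, rose by a log2 fold change of 1.76, where the muscle form, Pygm, fell by 0.66. Pgm2 rose by 1.20, and the glycogen phosphatase Epm2a fell by 0.95. Of 20 other glucose transporters and glycolytic isoenzymes, 4 (20%) were higher and 5 (25%) lower. Slc2a10 rose by 1.71 and the insulin-responsive transporter Slc2a4 by 1.22, while Pklr, pyruvate kinase of liver and red cells, fell by 1.40. Pklr was near the floor, with 12, 23 and 8 counts in the Sham mice and 6, 8 and 3 in the SCI mice. Neither DESeq2 nor limma-voom called it.

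Markers of further cell types were measured in the same mice. In SCI against Sham, 4 of 6 endothelial markers and 1 of 8 neutrophil markers (Mmp8, log2 2.33) were higher. Of 8 skeletal muscle, 5 erythroid and 2 tested Schwann cell markers, edgeR called 0 and none had an unadjusted p under 0.05. DESeq2 called 0 of them, with 1 muscle marker left without an adjusted p, and limma-voom called 4 erythroid markers (Hbb-bs, Hbb-bt, Hba-a2 and Alas2) lower and 0 of the others. Over the 9 mice the summed levels were 9.61 to 46.0 CPM for muscle and 211 to 755 CPM for Schwann cell markers. Erythroid markers summed to 279.4 to 369.5 CPM in Sham, 96.1 to 224.8 CPM in SCI and 62.1 to 221.5 CPM in SCI+FIPI mice. All 5 erythroid markers had a negative log2 fold change in SCI against Sham (median -0.97).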
